A study of Mus musculus with 19 samples.

Results

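The lens of mouse embryos at E11.5, where E counts embryonic days from the vaginal plug, was compared with the whole embryonic body on 7 of the 19 expression arrays of the series. The 7 arrays are all 3 of the E11.5 lens and all 4 of whole body that the labels assign to the lens series, which cover tissue from E10.5 to E12.5. Lens and body both came from wild-type embryos of the ICR strain, an outbred laboratory stock, and the labels name no mutation, transgene or drug in either group. Tissue was dissected in buffered saline and kept in RNAlater, a solution that preserves RNA. Column-purified total RNA was copied into biotin-labelled cRNA and hybridised to an Affymetrix mouse array of 45101 probe sets, each a group of short probes summarised to 1 value. The labels do not say how many embryos were pooled for an array, whether arrays of a group come from separate dissections, or whether the eyes were left in the whole bodies. The p-values therefore measure only the spread between arrays of a group, which may be technical. That spread was estimated over all 19 arrays of the series.

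At this stage the lens is a closed vesicle. The surface ectoderm over the optic cup thickens, folds in as a pit, closes and pinches off, leaving a hollow ball of epithelium wrapped in its own basement membrane, the future lens capsule. Cells at the back of the ball, facing the retina, leave the cell cycle and lengthen into primary fibres that fill with crystallins, while cells at the front remain a dividing epithelium. Pax6, Six3, Sox and Maf proteins set up this tissue, and FGF, BMP, Notch, Wnt and retinoic acid signals pass between it and the optic cup.

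Every gene was represented by 1 probe set, and 13320 of 18193 genes were bright enough on at least 3 arrays to be tested. Values are log2 signal, differences are E11.5 lens minus whole body on that scale, each given with its standard error from the fit, and a gene is called higher or lower at a Benjamini-Hochberg adjusted p under 0.05 from limma. Of the genes tested, 1954 (14.7%) were higher and 2965 (22.3%) lower in the E11.5 lens than in the body. Of these, 528 and 1405 differed by at least 2-fold. The counts of list members called against this body, given below, are to be compared with these shares of 14.7% and 22.3%. All 3 lens arrays lay above all 4 body arrays for 2056 genes (15.4%) and below them for 3049 (22.9%). The median signal of the tested genes averaged 7.53 on the lens arrays and 7.66 on the body arrays, a shift of −0.13. With every array centred on that median, 2768 genes were higher and 2446 lower, so that 53.1% of the calls were higher, beside 39.7% in the values as deposited. Control probe sets with no target in mouse had a 95th percentile of 4.71, and a difference that ends at or under this level is limited by background.

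The E11.5 lens arrays were not equally alike. Their correlations across all probe sets, controls included, ran between 0.9645 and 0.9943, against 0.9865 to 0.9946 among the body arrays, and array 1 stood apart. The bacterial transcripts added as hybridisation controls averaged 12.66 on lens array 1, against 9.94 and 10.56 on lens arrays 2 and 3, and they were also brighter on body arrays 2 and 3 (11.40 and 11.43) than on body arrays 1 and 4 (9.95 and 9.88). Without lens array 1 the counts were 1997 genes higher and 2495 lower. One array of another group, E10.5 lens array 3, carried crystallin signal far above the other E10.5 arrays and enters the shared estimate of spread. The tissue labels were checked with marker genes: Cryaa was near the top of the scale on all 3 lens arrays and around background on the 4 body arrays, and every tested neuron, muscle and liver gene was lower in the lens. Against 3 body arrays of a tooth series, which cover E11.5 to E13.5, 4380 genes were higher and 4942 lower, and 1460 and 2272 genes were called in the same direction against both bodies.

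The crystallins, the soluble proteins that give lens cells their refractive power, held the 2 largest rises on this scale, Cryba1 and Cryaa, whose lens signal was near its top and whose body signal was around background, so their order and exact folds are limited at both ends. The transcription factor Maf, which is required for fibre elongation and activates crystallin genes in mouse, was itself higher in the lens, at 12.56, 12.65 and 12.66 on the lens arrays, against 9.35, 9.19, 8.95 and 9.50 on the body arrays (difference 3.38 ± 0.14, adjusted p = 6.3e-13). Maf proteins bind elements built on the 6-base core site TGCTGA, so the 250 bases before the annotated start of each crystallin gene were searched for TGCTGA and its reverse complement TCAGCA on the gene's own strand, which covers both strands. The windows are RefSeq's, build GRCm38.p6, written 5′ to 3′ along the gene. The 5 with the largest differences among called crystallins that hold the core site are shown, with the core site in capitals.

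Cryba1 (chr11:77725294-77725543, minus strand): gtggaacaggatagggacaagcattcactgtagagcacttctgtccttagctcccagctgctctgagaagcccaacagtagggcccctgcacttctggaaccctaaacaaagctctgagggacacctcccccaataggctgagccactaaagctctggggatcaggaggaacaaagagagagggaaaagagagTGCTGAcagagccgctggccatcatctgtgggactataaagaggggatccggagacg
Cryaa (chr17:31677681-31677930, plus strand): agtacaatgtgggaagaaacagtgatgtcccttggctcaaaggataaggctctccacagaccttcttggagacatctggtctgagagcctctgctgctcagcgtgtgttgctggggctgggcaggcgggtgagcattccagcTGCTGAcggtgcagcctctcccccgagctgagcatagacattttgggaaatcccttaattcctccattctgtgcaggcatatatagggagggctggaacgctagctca
Crybb3 (chr5:113081585-113081834, minus strand): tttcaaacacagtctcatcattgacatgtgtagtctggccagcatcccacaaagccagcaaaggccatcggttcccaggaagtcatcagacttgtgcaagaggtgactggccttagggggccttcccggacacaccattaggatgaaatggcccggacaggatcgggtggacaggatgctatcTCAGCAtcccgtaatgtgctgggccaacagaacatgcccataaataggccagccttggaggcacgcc
Crybb1 (chr5:112255570-112255819, plus strand): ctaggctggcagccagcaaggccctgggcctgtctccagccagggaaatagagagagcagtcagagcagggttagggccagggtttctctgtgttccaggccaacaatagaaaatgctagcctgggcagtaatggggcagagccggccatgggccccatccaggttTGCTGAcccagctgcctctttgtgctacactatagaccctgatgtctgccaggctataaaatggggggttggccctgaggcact
Crygn (chr5:24757849-24758098, minus strand): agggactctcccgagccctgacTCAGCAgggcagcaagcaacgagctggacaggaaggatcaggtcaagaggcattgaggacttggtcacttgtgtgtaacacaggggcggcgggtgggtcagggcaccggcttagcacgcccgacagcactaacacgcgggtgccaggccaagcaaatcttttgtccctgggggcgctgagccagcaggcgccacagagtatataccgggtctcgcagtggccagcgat

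The core site begins 57 bases before the start in Cryba1, 108 in Cryaa and 84 in Crybb1, where it reads TGCTGA. In Crybb3 it begins 67 bases and in Crygn 228 bases before the start, and there it lies on the opposite strand and reads TCAGCA. Of the 12 crystallins called higher, 11 had a promoter window and 9 of these held the core site, and Cryba4 held 3, at 182, 135 and 77 bases before its start. The same letters were found in 15.6% of the 10694 tested genes with a window and in 16.1% of all 32851 windows. Among genes at least 2-fold higher in the lens, 89 of 424 (21%) held them. No other motif was searched, and a match describes the letters in the window, not bound protein.

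Of 16 listed crystallins, 14 were tested, and 12 were higher and none lower in the E11.5 lens. Their median difference was 5.25, beside −0.03 over all genes tested. Crygc and Cryge were not analysed here. Cryba1, a beta crystallin, measured 13.45, 14.14 and 14.00 on the lens arrays, against 4.71, 5.27, 4.72 and 4.18 on the body arrays. The groups were far apart, and the body values lay around background (difference 9.15 ± 0.76, 566-fold, adjusted p = 1.1e-08). Cryaa, the alpha crystallin that also acts as a chaperone, measured 13.91, 14.20 and 14.33 in lens, against 4.78, 4.77, 5.46 and 5.06 in body (difference 9.13 ± 0.30, 560-fold, adjusted p = 2.2e-14). Its partner Cryab, which is also made in muscle and heart, measured 12.21, 12.77 and 12.76 in lens, against 8.03, 7.86, 7.83 and 7.62 in body. Body signal of Cryab was thus well above background, and its difference was 4.74 ± 0.22 (adjusted p = 2.2e-12). Crybb3 was higher by 7.39 ± 0.45, Crybb1 by 7.17 ± 0.82, Crygn by 7.11 ± 0.82 and Cryba2 by 6.23 ± 0.82, and none of these overlapped with body. Crybb2, a major beta crystallin of the postnatal lens, differed least of the called members, at 6.99, 6.80 and 6.48 in lens, against 5.48, 5.73, 6.01 and 5.42 in body (difference 1.10 ± 0.23, adjusted p = 7.7e-04).

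The 3 lens arrays lay within 1 log2 unit for Cryaa, Cryab and Crybb3 but spread widely for the gamma crystallins, which are typical of fibre cells. Cryga measured 5.85, 12.32 and 10.07 in lens, against 4.39, 3.88, 4.75 and 4.24 in body. Lens array 1 was only a little above the body arrays, and the range of 6.47 over the lens arrays was the widest of any tested gene. The difference was 5.10 ± 1.66 (adjusted p = 0.021). The adjusted p was 0.12 without lens array 2, 0.062 without lens array 3 and 0.093 against the body of the tooth series. Crygb measured 4.90, 9.63 and 7.46 in lens, against 3.60, 3.47, 3.49 and 3.78 in body, so the groups did not overlap but the test did not call it (difference 3.75 ± 1.51, adjusted p = 0.060). Crygf gave 6.92, 9.27 and 7.40 in lens and 6.40, 5.86, 5.47 and 6.23 in body (difference 1.88 ± 1.13, adjusted p = 0.22). The same order of arrays held for Cryba4, at 7.69, 11.86 and 9.59 in lens, against 4.83, 5.31, 5.49 and 4.84 in body (difference 4.59 ± 1.35, adjusted p = 0.011, and 0.069 without lens array 2). Crygs, the gamma-related crystallin, was higher by 5.41 ± 0.60 and Crygd by 4.98 ± 0.92.

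Lens array 1 was the lowest of the 3 for 11 of the 14 crystallins, and array 2 the highest for 12. The range over the lens arrays exceeded 1 for 9 of the 14 (64.3%), beside 14.2% of all tested genes. Over all tested genes array 1 was the lowest for 7017 of 13320. Array 1 is also the lens array of high bacterial control signal; the part of that in the spread was not tested. The median of 5.25 became 6.38 without lens array 1, with 13 of the 14 higher, and 4.72 without lens array 2, with 10 higher. It was 4.35 within the arrays of high bacterial control signal, which hold lens array 1, and 6.64 within those of low signal, with all 14 higher in both. The shared spread of Crygb and Crygf includes E10.5 lens array 3, where Crygb measured 13.46, against 4.03 and 3.89 on the other E10.5 arrays. Without that array all 14 were higher, with adjusted p = 1.6e-04 for Crygb and 0.015 for Crygf. Gamma crystallin genes are near copies of each other, so their probe sets may share signal and the values of single members are uncertain.

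**Figure D1:**
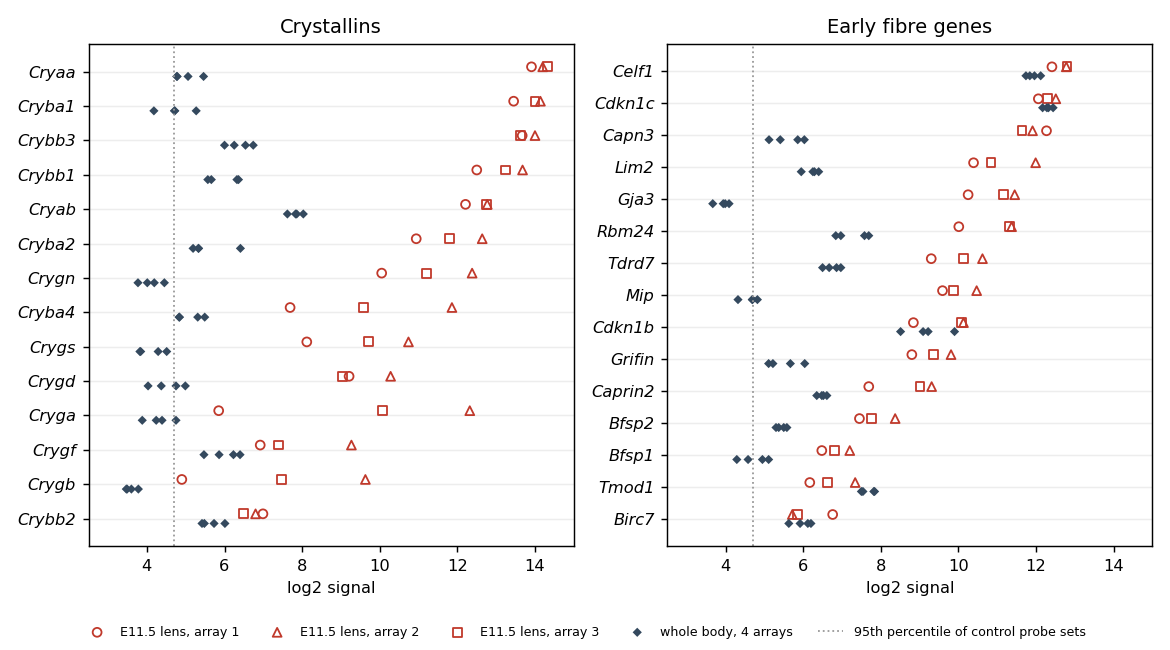
Log2 signal on the horizontal axis of each tested crystallin (left) and early fibre gene (right), 1 row a gene, with open symbols for the 3 E11.5 lens arrays, filled diamonds for the 4 body arrays and a dotted line at the 95th percentile of no-target controls (4.71). Cryaa and Cryba1 stand far to the right of the body on all 3 lens arrays, whereas Cryga runs from 5.85 on lens array 1 to 12.32 on lens array 2.

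Genes of early fibre cells were higher as well, with 11 of 15 tested members higher and 1 lower, and a median of 2.43. Gja3, a gap junction connexin that couples fibre cells, measured 10.25, 11.45 and 11.16 in lens, against 3.99, 3.67, 4.09 and 3.94 in body. Body signal was at background, and the difference was 7.03 ± 0.39 (131-fold, adjusted p = 3.4e-11). Capn3, a calcium-dependent protease with a lens-specific form in rodents, measured 12.27, 11.91 and 11.64 in lens, against 5.86, 5.41, 5.12 and 6.03 in body (difference 6.34 ± 0.27, adjusted p = 8.1e-13). Mip, the water channel aquaporin 0 of fibre membranes, measured 9.59, 10.47 and 9.87 in lens, against 4.32, 4.69, 4.69 and 4.82 in body (difference 5.35 ± 0.38, adjusted p = 1.0e-09). Lim2, another fibre membrane protein, was higher by 4.85 ± 0.71 and Grifin, a lens galectin relative, by 3.82 ± 0.31. The RNA-binding proteins Rbm24 and Tdrd7, both linked to cataract when lost, were higher by 3.63 ± 0.39 and 3.27 ± 0.30, and Caprin2 by 2.18 ± 0.46. All 3 of these were lower on lens array 1 than on arrays 2 and 3: Rbm24 measured 10.01 there, against 11.37 and 11.31.

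The beaded filament, the intermediate filament of lens fibres, showed smaller differences. Bfsp2 measured 7.45, 8.37 and 7.77 in lens, against 5.30, 5.50, 5.58 and 5.37 in body (difference 2.43 ± 0.21, adjusted p = 2.4e-08). Bfsp1 measured 6.48, 7.20 and 6.80 in lens, against 4.29, 4.95, 5.11 and 4.58 in body (difference 2.09 ± 0.77, adjusted p = 0.041). Its groups did not overlap, but the call was lost with the replicate number as a block (adjusted p = 0.059). It was also lost whichever single E11.5 lens or body array was left out (0.0505 to 0.105). The shared spread of Bfsp1 includes E10.5 lens array 3, where it measured 10.66, against 5.51 and 5.44 on the other E10.5 arrays. Tmod1, a cap of actin filaments in fibres and in muscle, was lower, at 6.17, 7.34 and 6.62 in lens, against 7.54, 7.82, 7.84 and 7.50 in body (difference −0.97 ± 0.22, adjusted p = 0.0018). Dnase2b, the nuclease that removes fibre nuclei later in development, was listed at background in both groups, between 3.90 and 3.96 in lens and between 3.72 and 4.05 in body, and was not tested. Lens array 1 was the lowest for 13 of the 15 fibre genes.

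Of 16 tested lens transcription factors, 13 were higher and 3 lower, with a median of 2.66. Prox1, a homeodomain factor needed for fibre elongation, measured 10.11, 9.94 and 10.24 in lens, against 4.93, 4.89, 4.79 and 5.22 in body (difference 5.14 ± 0.18, adjusted p = 3.0e-14). Foxe3, which keeps the front epithelium dividing and is needed for the vesicle to separate from the ectoderm, measured 11.30, 10.57 and 10.03 in lens, against 5.33, 6.61, 6.26 and 5.56 in body (difference 4.70 ± 0.30, adjusted p = 2.5e-10). Pitx3, whose loss causes the aphakia mutant, measured 10.49, 11.04 and 10.77 in lens, against 6.28, 6.28, 6.24 and 6.27 in body (difference 4.50 ± 0.17, adjusted p = 1.5e-13). In each of the 3 the groups were several log2 units apart. Pax6, Six3, Sox1 and Mab21l1 were higher by 4.18 ± 0.34, 3.92 ± 0.28, 3.82 ± 0.28 and 3.07 ± 0.21.

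Smaller differences were seen for factors that act outside the lens as well. Gata3 was higher by 2.24 ± 0.16 and Zeb2, a repressor needed for vesicle separation, by 1.17 ± 0.20. Hsf4, a heat shock factor of later fibres, was higher by 0.73 ± 0.19 but measured only 5.32, 5.18 and 4.94 in lens, against 4.39, 4.69, 4.38 and 4.22 in body. The 3 members lower in the lens were Meis2, Sox2 and Meis1. Meis2, a homeodomain factor that regulates Pax6 in the mouse lens, measured 5.62, 7.36 and 7.24 in lens, against 9.89, 10.63, 9.56 and 9.68 in body (difference −3.20 ± 0.32, adjusted p = 1.4e-07). Sox2, which acts with Pax6 at the placode stage and is abundant in neural tissue, measured 8.98, 8.71 and 9.17 in lens, against 10.09, 10.16, 9.22 and 10.18 in body (difference −0.96 ± 0.25, adjusted p = 0.0043). Meis1 differed by −0.66 ± 0.13, and by 0.04 (adjusted p = 0.83) when its probe sets were averaged.

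The capsule basement membrane genes were mostly higher, 11 of 15 tested, with 3 lower and a median of 1.09. Type IV collagen, the network of the capsule, showed its 4 measurable chains higher. Col4a6 measured 10.15, 9.79 and 9.87 in lens, against 6.73, 6.26, 6.89 and 6.86 in body (difference 3.25 ± 0.18, adjusted p = 3.5e-11), and Col4a5 measured 10.86, 11.73 and 11.61 in lens, against 8.38, 7.96, 7.96 and 8.56 in body (difference 3.18 ± 0.24, adjusted p = 2.8e-09). Col4a1 and Col4a2 were higher by 2.01 ± 0.18 and 1.89 ± 0.22. The chains Col4a3 and Col4a4, known from the kidney filter and the later capsule, stayed under background on all 7 arrays and were not tested. Nid1, the linker of the laminin and collagen networks, measured 12.36, 12.43 and 12.54 in lens, against 9.23, 9.25, 8.86 and 9.63 in body (difference 3.20 ± 0.22, adjusted p = 5.5e-10). Its paralog Nid2 was lower, at 7.14, 7.85 and 7.67 in lens, against 8.48, 8.74, 8.56 and 8.71 in body (difference −1.07 ± 0.16, adjusted p = 1.7e-05).

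The laminin chains differed to unequal degrees. Lama1, the alpha chain of the early embryonic laminin, measured 10.18, 8.97 and 9.35 in lens, against 6.49, 6.69, 7.20 and 6.68 in body (difference 2.74 ± 0.27, adjusted p = 1.4e-07). Lamc1, Lamb1 and Lama5 were higher by 1.49 ± 0.22, 1.09 ± 0.20 and 0.97 ± 0.18. Lamb2 differed by 0.54 ± 0.25, which was not called (adjusted p = 0.10). The proteoglycan Hspg2 (perlecan) was higher by 1.01 ± 0.24 and Sparc by 0.68 ± 0.14, whereas Col18a1 and Agrn were lower, with differences of −0.76 ± 0.15 and −0.61 ± 0.20. Agrn lost its call with the replicate block (adjusted p = 0.052) and without lens array 2 or 3 or body array 3 or 4 (0.056 to 0.12), and showed a difference of 0.01 (adjusted p = 0.97) within the arrays of high bacterial control signal. Against the body of the tooth series Lamb1 showed 0.00.

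**Figure D2:**
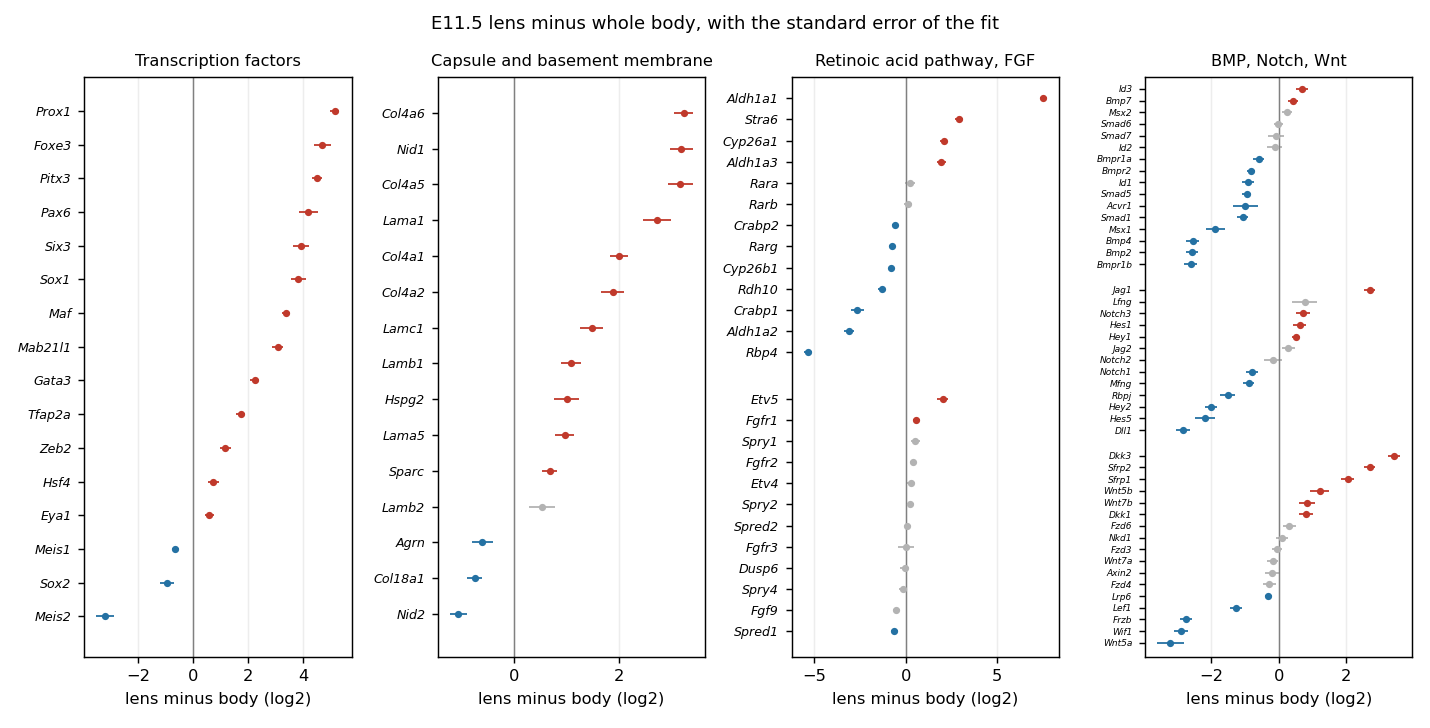
Difference of E11.5 lens minus whole body on the log2 scale for transcription factors, capsule genes, retinoic acid and FGF genes, and BMP, Notch and Wnt genes, with bars for the standard error of the fit. Red points are called higher, blue lower and grey not called; Prox1 (5.14) and Aldh1a1 (7.55) lie farthest to the right of their lists, Meis2 (−3.20) and Rbp4 (−5.36) farthest to the left.

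Of 19 tested genes of epithelial adhesion and polarity 10 were higher and 3 lower, or 8 and 1 without lens array 1; 1 was lower also without lens array 2 or body array 1, 2 or 3. Cdh1, E-cadherin of the lens epithelium, measured 10.63, 10.72 and 10.93 in lens, against 7.67, 7.48, 7.22 and 7.23 in body (difference 3.36 ± 0.16, adjusted p = 5.0e-12). Cdh2, N-cadherin, which both lens cell forms carry, measured 12.09, 12.40 and 12.50 in lens, against 11.04, 10.69, 9.96 and 11.25 in body (difference 1.59 ± 0.24, adjusted p = 2.5e-05). The ephrin receptor Epha2, linked to cataract, was higher by 1.66 ± 0.23, the laminin receptor chain Itga6 by 1.39 ± 0.13 and the ephrin Efnb2 by 1.23 ± 0.20. Epha7, another ephrin receptor, lay under the body, with a difference of −1.22. The catenins Ctnna1 and Ctnnb1 differed by −0.33 and −0.31 without overlap, but another probe set of each overlapped with body (0.10 and −0.12). Afdn and Nectin3, which join cells at adherens junctions, were higher by 0.88 ± 0.14 and 0.56 ± 0.13, and the polarity gene Scrib by 0.43 ± 0.13. Against the body of the tooth series Afdn showed 0.24 (adjusted p = 0.175) and Nectin3 −0.37. Shroom3, which drives apical constriction of the lens pit, measured 8.60, 8.21 and 8.26 in lens and 8.03, 8.37, 7.84 and 8.25 in body and was not called (difference 0.24 ± 0.16, adjusted p = 0.27).

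Genes of the surface ectoderm that the vesicle leaves behind were low, with 12 of 15 tested lower, none higher and a median of −1.70. Trp63, the master regulator of stratified epithelium, measured 4.11, 3.69 and 3.69 in lens, against 6.75, 6.26, 6.05 and 6.49 in body (difference −2.56 ± 0.18, adjusted p = 8.1e-10). All lens values of Trp63 were under background. Esrp1, an epithelial splicing factor, measured 4.35, 4.47 and 4.43 in lens, against 6.80, 6.12, 6.62 and 6.63 in body (difference −2.13 ± 0.22, adjusted p = 3.0e-07). The keratins Krt5, Krt14 and Krt8 were lower, with differences of −2.16 ± 0.27, −2.02 ± 0.20 and −1.73 ± 0.21, the desmosome plaque gene Dsp at −2.03 ± 0.22 and the tight junction claudin Cldn7 at −1.70 ± 0.25. Epcam, a surface protein of simple epithelia, was lower, with a difference of −1.08 ± 0.15, but 0.80 above the body of the tooth series. Krt18, the partner of Krt8 in simple epithelia, stood apart from it at 8.25, 8.74 and 8.37 in lens and 8.31, 8.62, 8.43 and 8.12 in body (difference 0.08 ± 0.22, adjusted p = 0.80). In bulk RNA, fewer cells of a type and less RNA per cell cannot be told apart, here or in any group below.

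The retinoic acid pathway held both extremes among the signalling lists. Aldh1a1, an enzyme that makes retinoic acid and an abundant lens protein in many mammals, measured 13.08, 13.06 and 13.24 in lens, against 5.41, 5.55, 5.81 and 5.54 in body (difference 7.55 ± 0.18, 187-fold, adjusted p = 5.4e-16). Its close relative Aldh1a7, which may share probe signal with it, measured 11.79, 11.99 and 12.03 in lens, against 5.38, 5.65, 4.94 and 5.62 in body (difference 6.54 ± 0.28, adjusted p = 8.6e-13). Aldh1a2, the enzyme of the trunk mesoderm, measured 5.20, 6.75 and 5.44 in lens, against 8.86, 8.56, 9.03 and 9.19 in body (difference −3.11 ± 0.29, adjusted p = 6.5e-08). The 3 lens arrays thus agreed closely on Aldh1a1, while Aldh1a2 was highest on lens array 2 and did not reach the body on any. Aldh1a3, the third enzyme of the family, measured 6.38, 7.32 and 7.47 in lens, against 5.18, 5.38, 4.97 and 4.88 in body (difference 1.95 ± 0.25, adjusted p = 3.0e-06).

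Vitamin A transport and breakdown also split. Stra6, the cell surface receptor that takes up retinol, measured 10.86, 10.31 and 10.06 in lens, against 7.09, 7.33, 7.47 and 7.96 in body (difference 2.95 ± 0.22, adjusted p = 1.8e-09). Its ligand Rbp4, the blood carrier made largely by liver, measured 4.60, 5.06 and 4.72 in lens, against 9.99, 9.92, 10.26 and 10.44 in body (difference −5.36 ± 0.23, adjusted p = 8.6e-13). Cyp26a1, which degrades retinoic acid, was higher by 2.08 ± 0.18, whereas its relative Cyp26b1 was lower, with a difference of −0.79 ± 0.15. Crabp1, a binding protein abundant in neural crest and neurons, measured 9.80, 7.87 and 8.00 in lens, against 11.28, 11.13, 11.13 and 11.29 in body (difference −2.65 ± 0.35, adjusted p = 5.8e-06, and 0.27 against the body of the tooth series). In all, 4 of 13 tested members were higher and 7 lower. Against the body arrays of the tooth series, 8 were higher and 4 lower, beside 4380 and 4942 of all 13320 genes tested.

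Among 12 tested FGF genes 2 were higher and 1 lower, beside 14.7% and 22.3% of all genes tested. With the arrays centred, 4 were higher and 1 lower, beside 2768 and 2446 of all 13320 genes tested. With the body arrays of the tooth series, 7 were higher and 1 lower, beside 4380 and 4942. Etv5, a transcription factor that rises with FGF signalling, measured 9.51, 9.42 and 9.60 in lens, against 7.47, 7.17, 7.11 and 8.21 in body (difference 2.02 ± 0.31, adjusted p = 3.3e-05). Fgfr1 was higher by 0.58 ± 0.18, and the inhibitor Spred1 was lower, with a difference of −0.63 ± 0.20. Neither call held without lens array 1, with values of 0.48 (adjusted p = 0.064) for Fgfr1 and −0.33 (adjusted p = 0.16) for Spred1, and Spred1 also lost it without body array 2 (adjusted p = 0.057) and measured −0.05 (adjusted p = 0.83) with its probe sets averaged. Fgfr3, a receptor that marks differentiating fibres, was uneven, at 7.20, 9.27 and 8.90 in lens and 8.81, 8.02, 8.26 and 8.72 in body. Lens array 1 lay under all body arrays and array 2 above them, and the difference was 0.00 ± 0.44. Fgf1 and Fgf2 were under background on all 7 arrays and were not tested.

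BMP genes were mostly lower, 10 of 16 tested, with 2 higher and a median of −0.86. The ligands Bmp4 and Bmp2 were lower, with differences of −2.54 ± 0.19 and −2.56 ± 0.17, with all 3 lens values of Bmp2 (3.50, 3.85 and 3.60) under background and body values of 6.11, 6.47, 6.09 and 6.17. Bmp7, the ligand of the lens ectoderm itself, measured 7.44, 7.52 and 7.76 in lens, against 7.21, 6.99, 7.04 and 7.38 in body (difference 0.42 ± 0.14, adjusted p = 0.020). This call was lost without lens array 3 (adjusted p = 0.11) or body array 2 or 3 (0.063 and 0.0525), and Bmp7 showed 0.16 (adjusted p = 0.345) against the body of the tooth series. The receptor Bmpr1b was lower, with a difference of −2.60 ± 0.20 and Bmpr1a, which lens formation requires, at −0.59 ± 0.17, or −0.40 (adjusted p = 0.066) without lens array 1 and −0.22 (adjusted p = 0.13) with its probe sets averaged. The signal carriers Smad1 and Smad5 were lower, with differences of −1.06 ± 0.16 and −0.94 ± 0.13. Of the target genes, Id3 was higher by 0.68 ± 0.18, whereas Id1 and Msx1 were lower, with differences of −0.90 ± 0.17 and −1.87 ± 0.27. Against the body of the tooth series Id1 showed 2.81.

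In the Notch list, with 4 of 13 tested members higher and 6 lower, the ligands separated. Jag1, the ligand that lens fibre development requires, measured 11.69, 11.49 and 11.57 in lens, against 8.76, 9.26, 8.81 and 8.76 in body (difference 2.69 ± 0.15, adjusted p = 3.6e-11). Dll1, the ligand of neural progenitors and somites, measured 5.13, 5.50 and 5.58 in lens, against 8.34, 8.22, 8.10 and 8.30 in body (difference −2.83 ± 0.22, adjusted p = 3.1e-09). The target genes Hes1 and Hey1 were higher by 0.63 ± 0.19 and 0.51 ± 0.12. Without lens array 1 Hes1 was not called (0.37, adjusted p = 0.13), and Hey1 showed −0.31 against the body of the tooth series. Hes5 and Hey2 were lower, with differences of −2.18 ± 0.29 and −1.99 ± 0.18. Rbpj, the shared nuclear partner of the receptors, was lower, with a difference of −1.51 ± 0.22.

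The Wnt list was divided between 6 higher and 5 lower of 17 tested, and secreted inhibitors stood on both sides. Dkk3 measured 10.81, 10.44 and 10.44 in lens, against 6.96, 7.08, 7.60 and 6.93 in body (difference 3.42 ± 0.18, adjusted p = 1.6e-11). Sfrp2 measured 13.49, 12.99 and 13.31 in lens, against 10.29, 10.32, 10.63 and 10.99 in body (difference 2.70 ± 0.16, adjusted p = 4.7e-11), and Sfrp1 was higher by 2.04 ± 0.20. Wif1 and Frzb, inhibitors known from cartilage and mesenchyme, were lower, with differences of −2.89 ± 0.21 and −2.74 ± 0.19. The ligand Wnt5a was lower, with a difference of −3.20 ± 0.39, and Wnt5b and Wnt7b were higher by 1.21 ± 0.27 and 0.84 ± 0.23. Wnt5b showed 0.23 within the arrays of high bacterial control signal, and 0.56 (adjusted p = 0.086) against the body of the tooth series. Lef1, a nuclear effector, was lower, with a difference of −1.25 ± 0.18, while the feedback target Axin2 measured 8.17, 8.03 and 8.01 in lens and 8.22, 8.12, 8.06 and 8.69 in body and was not called (adjusted p = 0.46).

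Genes of cell division differed little from the body, where many tissues divide: 1 of 21 tested was higher and 7 lower, with a median of −0.24. Mki67, present in all cycling cells, measured 11.26, 10.18 and 10.58 in lens, against 11.31, 11.32, 11.62 and 11.28 in body (difference −0.71 ± 0.26, adjusted p = 0.035). Lens array 1 lay just under the lowest body array. The call of Mki67 was lost with the arrays centred (adjusted p = 0.117), without lens array 2 or 3 (0.194 and 0.094) and without body array 1, 2 or 3 (0.055 to 0.086), and the difference was −0.21 within the arrays of high bacterial control signal. Rrm2, a subunit of the enzyme that makes DNA precursors, was lower, with a difference of −0.85 ± 0.13 and Pcna at −0.43 ± 0.11. Cdk1 differed by 0.08 ± 0.19 and was not called. Against the body arrays of the tooth series, 11 were higher and 5 lower, beside 4380 and 4942 of all 13320 genes tested. With the arrays centred, 1 was higher and 3 lower, and none was higher without lens array 1 or 3 or body array 1, 3 or 4.

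Among 13 tested genes of cell cycle exit, 2 were higher and 5 lower. Cdkn1c, the inhibitor p57 that stops division in primary fibres, measured 12.06, 12.51 and 12.30 in lens and 12.17, 12.28, 12.44 and 12.32 in body, and the groups overlapped (difference −0.01 ± 0.16, adjusted p = 0.96). Cdkn1b, the inhibitor p27, measured 8.84, 10.13 and 10.09 in lens and 9.22, 9.09, 8.51 and 9.90 in body, with lens array 1 inside the body range and the other 2 above it (difference 0.50 ± 0.35, adjusted p = 0.28). It was called higher without lens array 1 (0.93, adjusted p = 0.038) and against the body of the tooth series (1.89, adjusted p = 1.6e-04). Cdkn1a, the inhibitor p21, was lower, with a difference of −1.51 ± 0.23. The cyclins Ccnd1 and Ccnd2 were higher by 0.60 ± 0.13 and 0.42 ± 0.14. Ccnd2 lost its call without lens array 2 or 3 or body array 1 or 2 (adjusted p 0.0555 to 0.090). Ccnd1 lost its call with its probe sets averaged (0.23, adjusted p = 0.12) and against the body of the tooth series (0.29, adjusted p = 0.073). Without lens array 1, 3 of the list were higher and 3 lower. Against the body arrays of the tooth series, 6 of the 13 were higher and 2 lower, beside 4380 and 4942 of all 13320 genes tested.

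**Figure D3:**
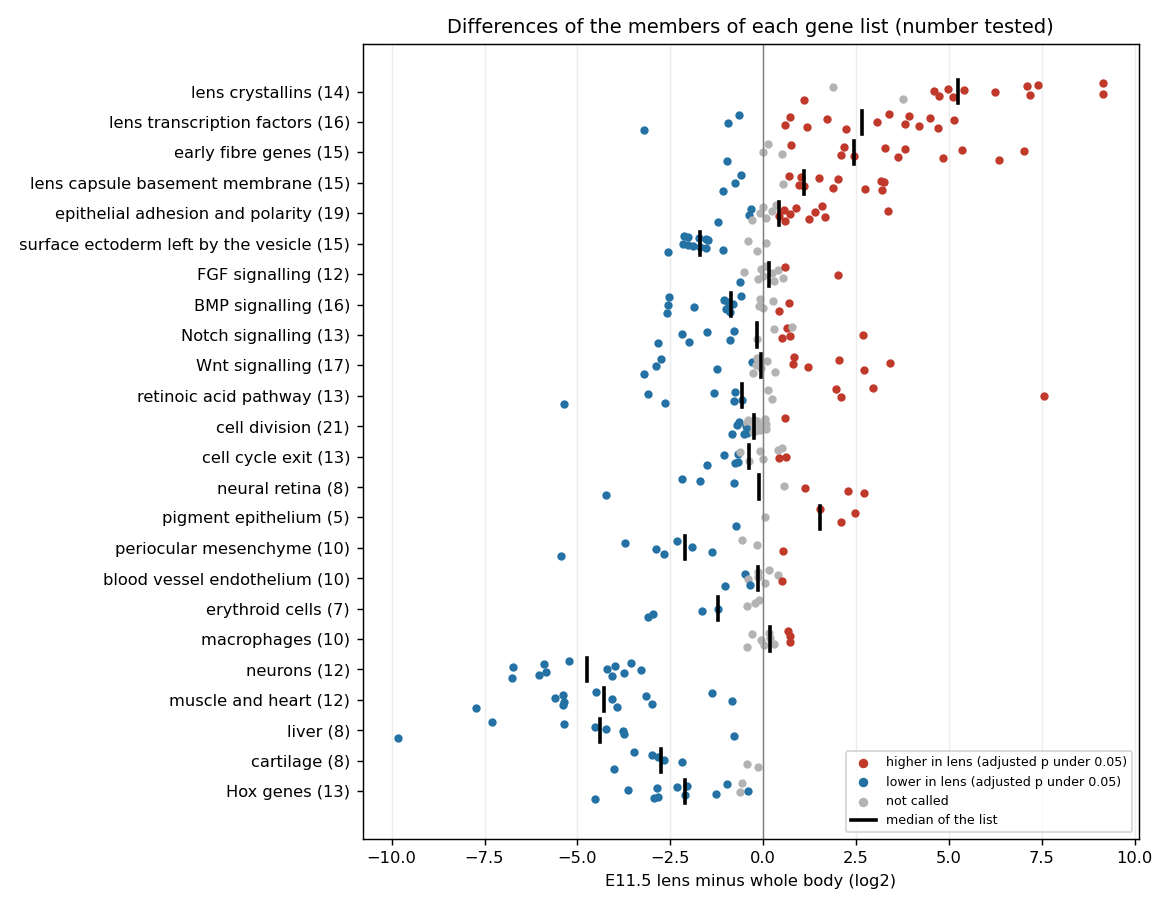
Difference of E11.5 lens minus whole body on the log2 scale for every tested member of each gene list, with red points called higher, blue called lower, grey not called and a black bar at the list's median. Crystallins (median 5.25), transcription factors (2.66) and early fibre genes (2.43) lie to the right, while neurons (−4.73), liver (−4.38) and muscle and heart (−4.29) lie to the left.

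Of the 12 largest rises 3 lay outside the lists, Aldh1a7, given above, Nupr1 and Trpm3. Nupr1, a small stress-response chromatin protein, measured 11.36, 10.82 and 11.06 in lens, against 4.48, 4.64, 4.72 and 4.29 in body (difference 6.55 ± 0.17, 93.7-fold, adjusted p = 1.8e-15). Trpm3, a cation channel gene whose intron holds the microRNA gene Mir204, measured 11.01, 10.09 and 10.39 in lens, against 4.54, 4.05, 4.61 and 4.27 in body (difference 6.13 ± 0.20, 69.8-fold, adjusted p = 1.9e-14). Body values of both lay around background. The largest fall on this scale was Afp, the fetal liver plasma protein, at 3.19, 3.14 and 2.98 in lens, against 12.80, 13.14, 12.92 and 12.86 in body (difference −9.83 ± 0.35, adjusted p = 6.0e-14). Fabp7, a lipid carrier of radial glia, was lower, with a difference of −7.65 ± 0.48, the heart myosin light chain Myl2 at −6.49 ± 0.19 and the liver corticosteroid carrier Serpina6 at −5.97 ± 0.21. The other 8 of the 12 largest falls belong to the neuron, muscle and liver lists.

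Markers of distant tissues were low in the lens. All 12 tested neuron genes, 12 muscle and heart genes and 8 liver genes were lower, and 6, 4 and 4 of them stayed at or under background on all 3 lens arrays. The summed linear signal of the neuron list was 352.3 to 413.4 on the lens arrays, against 12539.1 to 14608.3 on the body arrays. For the liver list the sums were 272.3 to 390.6 in lens and 15919.5 to 19421.8 in body. Nefm, a neurofilament, was lower, with a difference of −6.77 ± 0.18, Actc1, cardiac actin, at −7.74 ± 0.20 and Alb, albumin, at −7.29 ± 0.21. Of 13 tested Hox genes, which pattern the trunk and limbs and are silent in the front of the head, 11 were lower and none higher, with Hoxc8 at 3.12, 3.12 and 3.17 in lens, against 8.04, 7.57, 7.32 and 7.75 in body. Of 8 tested cartilage genes 6 were lower, whereas Col9a1, a collagen of cartilage and eye, measured 10.30, 10.75 and 10.85 in lens and 10.87, 10.71, 10.52 and 11.04 in body (difference −0.15 ± 0.16, adjusted p = 0.50).

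Genes of blood cells and vessels, which lie around the lens in the eye, gave mixed values. The embryonic globin Hbb-y of red blood cells, whose probe set may share signal with other globins, measured 14.32, 14.05 and 14.21 in lens and 14.21, 14.46, 14.34 and 14.24 in body (adjusted p = 0.61), near the top of the scale in both groups, where a difference may be compressed. Klf1, the factor that drives globin genes in maturing red cells, was lower, at 6.55, 7.15 and 7.15 in lens, against 9.83, 9.91, 10.28 and 9.64 in body (difference −2.96 ± 0.22, adjusted p = 2.6e-09). The erythroid list summed to 39064.0 to 42741.4 in lens and 48942.1 to 55413.0 in body, with 4 of 7 tested members lower. Among the endothelial genes, 1 of 10 was higher (2 without body array 4) and 3 were lower, beside 14.7% and 22.3% of all genes tested. The endothelial sums were 1699.8 to 2155.4 in lens and 2051.3 to 2090.2 in body. Of 10 macrophage genes 3 were higher and none lower, but 1 was higher without lens array 1, and none higher and 1 lower without lens array 2. Cx3cr1, a microglia and macrophage receptor, measured 6.45, 6.91 and 6.11 in lens, against 5.96, 5.58, 5.83 and 5.68 in body (difference 0.73 ± 0.22, adjusted p = 0.013), and was not called without lens array 2 (0.51, adjusted p = 0.090).

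Pigment epithelium, the outer layer of the optic cup, had 3 of 5 tested genes higher and 1 lower. Pmel, the fibril protein of pigment granules, measured 8.45, 8.63 and 8.93 in lens, against 6.30, 6.13, 6.16 and 6.14 in body (difference 2.48 ± 0.16, adjusted p = 2.4e-10). Dct, a melanin enzyme, measured 7.67, 7.31 and 7.62 in lens, against 5.33, 5.52, 5.67 and 5.20 in body (difference 2.10 ± 0.28, adjusted p = 5.4e-06), and Mitf, the regulator of pigment cells, was higher by 1.52 ± 0.25. Dct showed 0.63 (adjusted p = 0.066) against the body of the tooth series. The pigment list summed to 943.1 to 1114.2 in lens and 469.4 to 533.0 in body. The melanin enzymes Tyr and Tyrp1 and the melanosome gene Mlana were under background on all 3 lens arrays. Otx2, a factor of pigment epithelium and brain, was lower than in the body, with a difference of −0.74 ± 0.18, and showed 0.42 against the body of the tooth series.

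Neural retina genes were mixed, with 3 of 8 tested higher and 4 lower. Six6 measured 5.88, 6.74 and 7.39 in lens, against 4.56, 4.34, 4.0 and 4.61 in body (difference 2.29 ± 0.26, adjusted p = 7.0e-07), and Rax, the eye field factor, was higher by 1.13 ± 0.19. Lhx2, a retina and forebrain factor, was lower, with a difference of −1.69 ± 0.23 and Neurog2, of neural progenitors, at −4.23 ± 0.45. Lhx2 showed −0.20 (adjusted p = 0.49) against the body of the tooth series. Sfrp2, higher in the lens as given above, is also a retina gene and stands in this list too.

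Periocular mesenchyme genes were mainly lower, 7 of 10 tested, with 1 higher. Their summed signal was 7515.5 to 8503.1 in lens and 22452.9 to 26277.5 in body. Postn, a matrix protein of connective tissue, measured 4.76, 5.74 and 5.58 in lens, against 10.75, 10.73, 10.73 and 10.92 in body (difference −5.43 ± 0.20, adjusted p = 1.4e-13), and the collagen Col1a2 measured 10.74, 10.31 and 10.17 in lens, against 12.55, 12.54, 12.87 and 12.90 in body (difference −2.31 ± 0.21, adjusted p = 3.6e-08). Pdgfra, a growth factor receptor of mesenchyme that the lens also carries in mouse, was higher by 0.54 ± 0.16, or 0.47 (adjusted p = 0.055) without lens array 3. The part of these neighbouring cells in the lens differences described above was not tested.

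A second contrast set the E11.5 lens against the mean of the E10.5 and E12.5 lens, which uses no body array and picks out genes that do not lie midway between the stages before and after. It called 20 genes higher (0.150%) and 40 lower (0.300%), and 937 genes had an unadjusted p under 0.05. For 12 of the higher genes all 3 E11.5 arrays lay above all 6 other lens arrays, and for 8 of the lower genes all lay below. The counts depend on the spread that the body and tooth arrays lend to the fit: with the 9 lens arrays alone 2 genes were higher and 3 lower, and with the replicate number as a block they were 13 and 31. Of the genes described below for this contrast, only Pmel and Lin7a kept their call with the lens arrays alone. Single arrays moved them too. Without E11.5 lens array 1 they were 37 and 23, and without E11.5 lens array 3 they were 7 and 12. Without E10.5 lens array 3 they were 39 and 41. Leaving out E11.5 array 2, E10.5 array 2 or E12.5 array 3 left 10, 12 and 13 genes higher, and leaving out E12.5 array 2 left 23 lower.

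The higher genes included markers of neighbouring cells. They held 2 of 5 tested pigment epithelium genes and 3 of 10 tested periocular mesenchyme genes, beside 0.150% of all genes tested. None of either list was lower. Pmel measured 6.69, 6.99 and 7.21 on the E10.5 arrays, 8.45, 8.63 and 8.93 on the E11.5 arrays and 7.09, 7.30 and 7.14 on the E12.5 arrays (difference from the mean of the other stages 1.60 ± 0.15, adjusted p = 2.2e-05). The E11.5 values were above all 6 others. Otx2 measured 6.58, 6.54 and 6.39 on the E10.5 arrays, 6.92, 7.0 and 7.08 on the E11.5 arrays and 5.27, 5.06 and 4.45 on the E12.5 arrays (difference 1.28 ± 0.16, adjusted p = 8.7e-04). Lum, a proteoglycan of corneal and other connective tissue, measured 8.50, 8.02 and 8.81 on the E10.5 arrays, 10.38, 10.43 and 10.21 on the E11.5 arrays and 10.18, 9.69 and 9.26 on the E12.5 arrays (difference 1.26 ± 0.21, adjusted p = 0.0069). Twist1 and Col1a2, of mesenchyme, were higher by 1.24 and 1.32, with E11.5 arrays that overlapped the other stages. Twist1 lost its call with the replicate block (adjusted p = 0.082) and without E11.5 array 1 or 3 (0.095 and 0.075). Summed linear signal of the pigment list was 484.1 to 542.0 for E10.5, 943.1 to 1114.2 for E11.5 and 561.9 to 579.2 for E12.5. For the periocular mesenchyme list it was 5087.5 to 6215.8, 7515.5 to 8503.1 and 5507.0 to 6827.9 in the same order.

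Fst, an antagonist of activin and BMP ligands, measured 4.61, 5.03 and 5.75 on the E10.5 arrays, 6.32, 6.70 and 7.01 on the E11.5 arrays and 4.90, 5.98 and 5.35 on the E12.5 arrays (difference 1.40 ± 0.23, adjusted p = 0.0074). Its E11.5 values were above all other lens arrays and still under the body, where it measured 8.26, 7.75, 7.56 and 7.80. Dkk2, a Wnt inhibitor of the periocular region, was higher by 1.30 ± 0.26 (adjusted p = 0.026) and Car2, a carbonic anhydrase of red cells and many epithelia, by 1.15 ± 0.24 (adjusted p = 0.033). Both lost the call with the replicate block, at adjusted p = 0.070 and 0.068, and Dkk2 also without any single E11.5 array (0.068 to 0.084) and Car2 without E11.5 array 2 or 3 (0.126 and 0.199). Leaving out single E10.5 or E12.5 arrays ended both calls as well, in 3 settings each (adjusted p 0.0578 to 0.066 for Dkk2 and 0.057 to 0.080 for Car2). Fst was not called without E11.5 array 3 (1.24, adjusted p = 0.075).

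The lower genes included 5 of the 15 surface ectoderm genes, Esrp1, Cldn7, Krt8, Dsp and Epcam, beside 0.300% of all genes tested. Each was high at E10.5 and already low at E11.5. The E11.5 mean lay between the means of the other stages for all but Cldn7, and so the call marks a mean under their midpoint. Esrp1 measured 7.75, 8.13 and 7.09 on the E10.5 arrays, 4.35, 4.47 and 4.43 on the E11.5 arrays and 4.19, 4.01 and 4.60 on the E12.5 arrays, so it was under background from E11.5 on (difference −1.55, adjusted p = 0.0014). Dsp measured 9.87, 10.41 and 9.38 on the E10.5 arrays, 6.09, 6.29 and 6.20 on the E11.5 arrays and 4.55, 4.49 and 4.18 on the E12.5 arrays (difference −0.95, adjusted p = 0.037). Epcam, at 10.25, 10.21 and 9.92, then 6.93, 7.24 and 7.20, then 5.56, 5.25 and 5.26 at the 3 stages, was just past the threshold (difference −0.62, adjusted p = 0.046) and missed it with the replicate block (0.12). Without single E11.5 arrays Dsp and Epcam lost their calls whichever was left out (adjusted p 0.070 to 0.16 for Dsp and 0.068 to 0.19 for Epcam), Krt8 without array 1 or 3 (0.070 and 0.102) and Cldn7 without array 2 or 3 (0.074 and 0.185). Leaving out single E10.5 or E12.5 arrays also ended calls of Dsp, Epcam and Cldn7.

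Tmod1 had the opposite course and was high at E12.5. It measured 5.79, 5.86 and 6.41 on the E10.5 arrays, 6.17, 7.34 and 6.62 on the E11.5 arrays and 9.57, 9.67 and 9.67 on the E12.5 arrays (difference −1.12, adjusted p = 0.016, and 0.078 and 0.0985 without E11.5 array 1 or 3). Genes under both other stages were few. Slc15a3, a lysosomal transporter of histidine and small peptides, measured 9.31, 9.06 and 8.35 on the E10.5 arrays, 7.32, 7.73 and 7.57 on the E11.5 arrays and 8.64, 8.88 and 8.66 on the E12.5 arrays (difference −1.27 ± 0.18, adjusted p = 0.0023), and it was still higher than in the body by 2.74 ± 0.19. Lin7a, a scaffold protein of cell junctions and synapses, was lower, with a difference of −1.38 ± 0.21 and Spag5, a protein of the mitotic spindle, at −0.87 ± 0.13. No crystallin or lens transcription factor was called in this contrast. For Cryga, Crygb, Crygd, Crygf, Crygn, Crygs, Cryba1, Cryba2, Cryba4 and Crybb1 the test could not decide whether E11.5 lay midway. E10.5 array 3 lifted their E10.5 mean and widened their spread. Cryga measured 13.73 on that array, against 4.50 and 4.49 on E10.5 arrays 1 and 2, and Cryba4 13.56, against 5.47 and 5.35. The standard errors of the crystallins ran from 0.20 (Cryab, difference 0.01) to 1.53 (Cryga, difference −1.34), and Crygb differed by −2.80 ± 1.40.

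**Figure D4:**
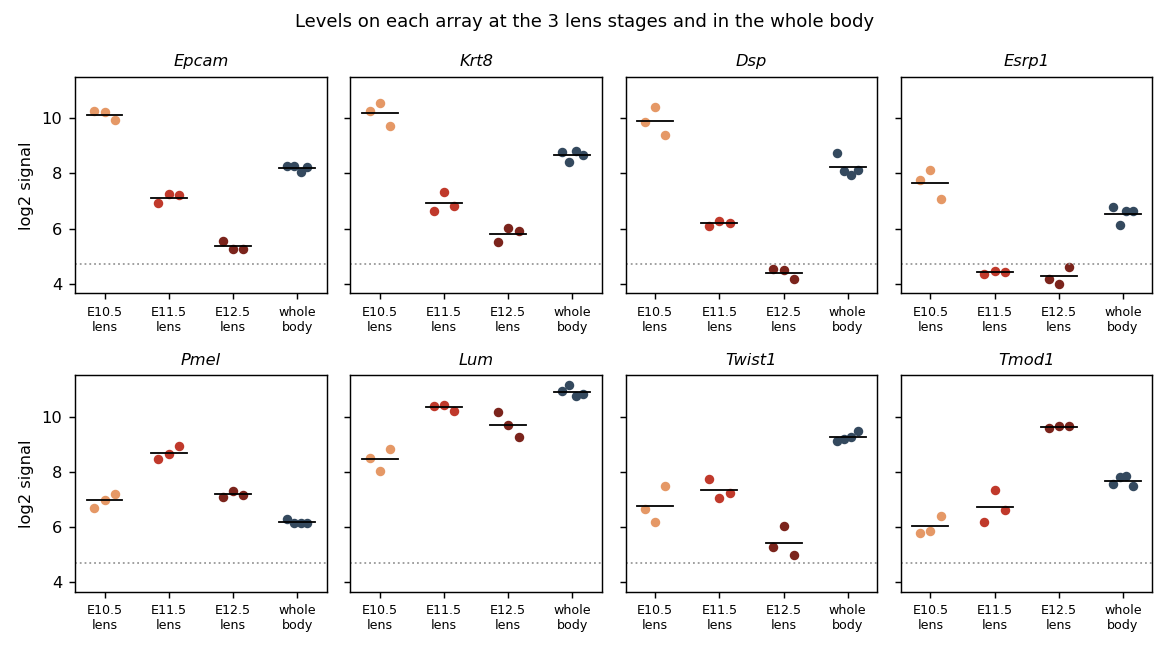
Log2 signal on each array of 8 genes at the 3 lens stages and in the whole body, with a bar at each group mean and a dotted line at the 95th percentile of no-target controls (4.71). Epcam, Krt8, Dsp and Esrp1 drop after E10.5 and lie under the body at E11.5, Pmel peaks at E11.5 (8.45 to 8.93), and Tmod1 is high at E12.5 only among the lens stages.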

How the data were processed

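The authors deposited 1 linear signal intensity for each of 45101 probe sets on 19 arrays. The submitters' processing notes name RMA and the tool affy 0.7, without their roles, and further settings are not given in the sources used here. Intensities were turned into log2 values with no further scaling. GEO's platform annotation of 2016 gave 34945 probe sets a single gene, 932 several and 9160 none, and 64 were controls. Symbols were updated through RefSeq (GRCm38.p6) for 34741. The probe set with the highest mean stood for each of 18193 genes, and genes above the median of all values (5.46 log2) on at least 3 arrays were tested.

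All 19 arrays, with 1 mean for each group, entered limma 3.58.1 (R 4.3.3, lmFit and eBayes, two-sided, Benjamini-Hochberg over 13320 genes); this fit was first tested on simulated data. Named genes were drawn from the 12 largest rises and falls without overlap, the 6 largest on each side against the other lens stages and members of the lists. Of the 6 largest falls against the other lens stages, Gm3515 (−1.60), Cep128 (−1.02) and Coro2b (−0.86) were not described above. The members and lists were chosen with earlier results of these data known. Deviations from the group means were correlated across genes between arrays with the same replicate number, as given in the titles. These correlations were 0.40 to 0.64 between E11.5 and E12.5 lens, −0.06 to 0.58 between E11.5 and E10.5 lens and −0.53 to −0.09 between E11.5 lens and body. Between arrays of unlike number they ran from −0.60 (E11.5 array 1 with E12.5 array 2) to 0.55 (E11.5 array 3 with body array 1). Array 1 was the array of high bacterial control signal in both the E11.5 and E12.5 lens. The part of that signal in these correlations was not tested, so pairing by number was not shown. Alternatives covered the model, block, filter, offset, scaling, choice of probe set, array sets by control signal, body arrays and single arrays left out. The number of arrays limits the precision.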

Additional observations from a re-analysis of the deposited data

Results flagged for a closer look

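Among 162 sets of 4 body arrays tested for a lone extreme value, 10 held one, and chance alone gives about 1 in 20. The body array that stood alone was high for Cryba2 (6.41), Hes1 (9.20), Jag1 (9.26), Mki67 (11.62), Postn (10.92) and Wnt7b (8.80). It was low for Epcam (8.06), Lef1 (7.62), Sox2 (9.22) and Tyrp1 (3.49). The lens groups of 3 arrays were too small for this check.

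The E11.5 lens differed from the mean of the E10.5 and E12.5 lens, by limma with Benjamini-Hochberg adjustment, for 18 of the genes described in Results. Above that mean lay Pmel (1.60), Fst (1.40), Col1a2 (1.32), Dkk2 (1.30), Otx2 (1.28), Lum (1.26), Twist1 (1.24), Car2 (1.15) and Col9a1 (0.71). Below it lay Esrp1 (−1.55), Lin7a (−1.38), Slc15a3 (−1.27), Cldn7 (−1.20), Tmod1 (−1.12), Krt8 (−1.05), Dsp (−0.95), Spag5 (−0.87) and Epcam (−0.62). Values are log2 differences.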

How the results depend on the processing

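Against the whole body, 1954 genes were higher and 2965 lower, and these counts stayed within 1.5 times under every alternative but one. With the body arrays of the tooth series they were 4380 and 4942. Leaving out single lens or body arrays gave 1619 to 1997 higher and 2495 to 3094 lower. The replicate block gave 1843 and 2748. Against the other lens stages (20 and 40), genes higher numbered 2 with the lens arrays alone, 13 with the replicate block, 42 with the bacterial control set as a block and 43 within its high set, and genes lower numbered 3 with the lens arrays alone, 31 with the replicate block, 103 with the set as a block, 286 within the high set and 62 within the low set. Leaving out single lens arrays gave 7 to 39 higher and 12 to 47 lower. The high set holds a single E11.5 array, whose spread is taken from the other groups. For the contrast with the body, the setting without E10.5 lens array 3 was chosen after seeing the data. Over 3436 gene values recomputed for 154 of the named genes, 3236 kept their side of the threshold and, where called, their direction. Of the rest, 161 lost the call, 27 gained it and 12 turned, being called in at least 1 of both settings. With the tooth-series body these were Cdkn1c (1.42), Crabp1 (0.27), Epcam (0.80), Hbb-y (0.43), Hey1 (−0.31), Id1 (2.81), Nectin3 (−0.37), Otx2 (0.42) and Shroom3 (−0.47). With all probe sets averaged it was Meis1 (0.04), and within the high set Agrn (0.01) and Fgfr3 (−0.94). The cause of these turns was not tested. Beside Car2, Dkk2 and Epcam, the replicate block ended the call of Twist1 (adjusted p = 0.082) and Col9a1 (adjusted p = 0.070) against the other stages, and of Agrn (adjusted p = 0.052) and Bfsp1 (adjusted p = 0.059) against the body. Signals at or under 4.71 cannot be told from background, and signals above 12 are near the top of the scale, so differences that end at either may be understated.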
